A study of Mus musculus with 8 samples.

Results

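The 44 genes described here drive or mark cell division, and they were read on arrays of Thy1-positive testis cells from mouse pups. They were chosen by name: cyclins and their kinases, the proteins that license and copy DNA, and the kinases, motors and kinetochore proteins of mitosis. Earlier results of these data were known when these genes and the further gene and marker lists below were chosen. A probe whose RefSeq accession maps to the gene was found for 41 of the 44, among 17513 genes tested in all. Ccnd1, Prc1 and Rrm2 have no such probe here and are not analysed. All 41 measured genes were well above background on all 8 arrays, so none depended on the filter for dim probes.

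A dividing cell first loads the MCM helicase onto DNA, copies the genome in S phase, and then condenses, aligns and separates its chromosomes in mitosis. Transcription of the replication genes is driven largely by E2F factors ahead of S phase, while genes of mitosis peak later through promoter elements called CHR and CCAAT boxes, which are bound by the MuvB complex and NF-Y. In the newborn mouse testis the gonocytes, the fetal-type germ cells, leave a long arrest and resume division in the days after birth, and Sertoli cells divide at the same age. Transcripts of these genes can therefore come from germ cells and from somatic cells alike.

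The arrays held 4 samples labelled Glis3KO2, from mice lacking the zinc finger factor GLIS3, and 4 labelled wild type (WT). All were C57BL/6 pups at postnatal day 4, kept with their mothers and given no treatment. The cells were isolated by the surface protein Thy1 and labelled as testis spermatogonial progenitor cells. The labels do not say which part of Glis3 the Glis3KO2 allele removes or in which cells. The design text names 3 testes per genotype, while 4 samples of each are listed, and nothing says that they came from separate animals, so the spread behind each p-value is that among the samples given and may be technical only. Values are log2 of the processed spot signal relative to the 75th percentile of its array, so a value of 0 is that percentile, and differences are Glis3KO2 minus WT. As signals of different probes have no common scale, levels are compared only between arrays and never between genes.

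The promoters show the sequence side of the split between replication and mitosis. RefSeq windows of 300 bases on GRCm38.p6, running from 250 bases before each gene's annotated start to 50 after it, matched 31 of the 41 measured genes. They were searched on both strands for an E2F core (the words TTCCCGC or TTCGCGC, or TTGCCGC, or else TTGGCGC), a CHR (TTTGAA) and a CCAAT box (CCAAT). An E2F word on one strand can share bases with an E2F word or a CCAAT box on the other, as do the E2F word at -102 and the CCAAT box at -99 of Ccnb1, counted in bases from the start. An E2F word stood in 6 of 8 replication promoters and in 0 of 15 mitosis promoters, against 10.9% of all 27025 genes with a window. A gene with several windows counts once, if any of them holds the word. For the CHR word the counts were 1 of 8 and 10 of 15, against 20.2% of all genes. The CCAAT box was found in 6 of 8 and 11 of 15, against 41.1% of all genes, and a CHR with a CCAAT box in 1 of 8 and 9 of 15, against 8.97%. A match is a description of the letters, and a missing match says only that these letters are not in that window.

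**Figure D1:**
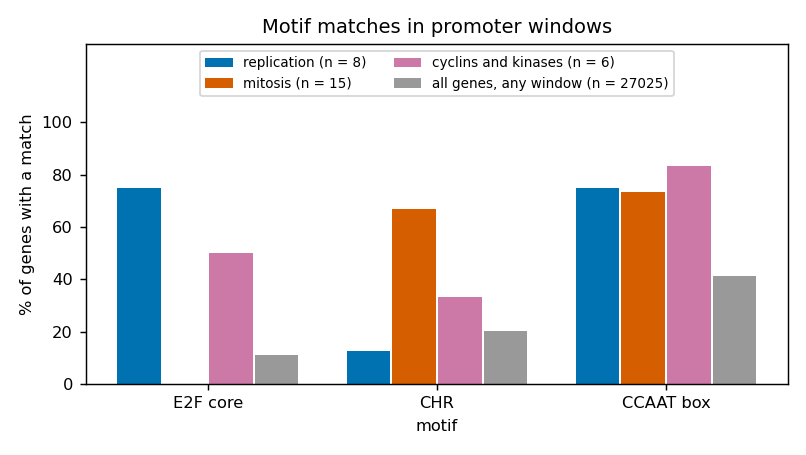
Share of genes (y axis, percent) with at least 1 match to each motif in a promoter window (x axis), for replication, mitosis, and cyclin and kinase genes and for all 27025 genes with a window, with the number of genes in the legend. E2F words are found in 6 of 8 replication promoters and 0 of 15 mitosis promoters, and the CHR word in 12.5% and 66.7%.

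Promoters of 5 genes are shown, with matched words in capitals, because 4 of them are those of the replication and mitosis genes with the smallest p between the genotypes and Cdk1 carries both kinds of element. Each runs 5′ to 3′ on its gene's strand. Mcm6 lies on the minus strand at chr1:128359656-128359955, Mcm5 on the plus strand at chr8:75109259-75109558, Aurka on the minus strand at chr2:172370521-172370820, Cenpf on the minus strand at chr1:189688037-189688336 and Cdk1 on the minus strand at chr10:69352863-69353162.
Mcm6: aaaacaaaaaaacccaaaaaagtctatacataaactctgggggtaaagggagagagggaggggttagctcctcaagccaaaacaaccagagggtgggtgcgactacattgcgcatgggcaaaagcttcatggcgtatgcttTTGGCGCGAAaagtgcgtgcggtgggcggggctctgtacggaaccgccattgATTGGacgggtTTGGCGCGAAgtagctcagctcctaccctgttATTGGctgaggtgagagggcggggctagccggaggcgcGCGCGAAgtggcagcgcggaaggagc
Mcm5: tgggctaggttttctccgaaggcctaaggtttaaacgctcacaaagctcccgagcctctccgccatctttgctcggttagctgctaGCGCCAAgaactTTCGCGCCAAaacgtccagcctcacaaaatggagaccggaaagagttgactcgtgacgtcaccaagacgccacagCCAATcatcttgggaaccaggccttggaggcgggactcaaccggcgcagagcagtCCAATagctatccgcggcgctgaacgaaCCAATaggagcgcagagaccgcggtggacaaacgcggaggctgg
Aurka: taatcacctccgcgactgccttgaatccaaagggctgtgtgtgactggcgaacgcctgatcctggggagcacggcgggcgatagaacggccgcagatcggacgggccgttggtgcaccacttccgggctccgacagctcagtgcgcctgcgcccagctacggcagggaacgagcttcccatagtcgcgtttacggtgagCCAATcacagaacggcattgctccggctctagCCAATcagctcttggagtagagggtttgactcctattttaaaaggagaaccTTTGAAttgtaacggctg
Cenpf: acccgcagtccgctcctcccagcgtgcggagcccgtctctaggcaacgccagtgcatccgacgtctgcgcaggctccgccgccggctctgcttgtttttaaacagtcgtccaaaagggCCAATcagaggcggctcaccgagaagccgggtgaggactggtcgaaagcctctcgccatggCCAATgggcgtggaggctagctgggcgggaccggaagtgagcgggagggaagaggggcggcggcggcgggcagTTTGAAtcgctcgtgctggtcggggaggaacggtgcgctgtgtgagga
Cdk1: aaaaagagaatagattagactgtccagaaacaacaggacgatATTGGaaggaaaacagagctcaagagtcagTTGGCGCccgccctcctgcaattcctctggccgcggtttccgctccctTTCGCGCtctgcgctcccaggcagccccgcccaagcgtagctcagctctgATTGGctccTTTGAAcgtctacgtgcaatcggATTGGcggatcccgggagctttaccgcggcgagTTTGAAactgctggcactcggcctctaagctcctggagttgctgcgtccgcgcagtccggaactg
Mcm6 held 5 E2F words and 2 CCAAT boxes, and Mcm5 held 3 of each. Aurka and Cenpf each held 1 CHR close to the start and 2 CCAAT boxes before it. Cdk1 held 2 E2F words, 2 CHR words and 3 CCAAT boxes. The window of Mcm2 was unlike those of Mcm3, Mcm5, Mcm6 and Mcm7 in having no E2F word and a CHR.

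Several facts of the whole series touch the results below. Glis3 signal was -1.98, -2.18, -1.18 and -1.32 in Glis3KO2 replicates 1 to 4, against -1.09, -1.01, 0.57 and 0.60 in WT replicates 1 to 4, a difference of -1.43 (SE 0.45; exact two-sided permutation p = 0.0286, the smallest that 70 labellings allow). Every Glis3KO2 array was below every WT array, and the highest signals were those of WT replicates 3 and 4. Without those 2 arrays the Glis3 difference was -0.62. The first principal component of all genes (32.3% of variance) set WT replicate 3 at 69.1 and WT replicate 4 at 60.04, with no other array above 3.85. At the other end of this component was Glis3KO2 replicate 2 at -55.9. On the second component (20.1% of variance) WT replicate 1 was at 80.8, with no other array above 3.20. WT replicates 3 and 4 stood apart at the high end of the first component, and results are given with and without them. Germ cell markers moved with them: the mean of 18 measured markers, each centred over the 8 arrays, ranged from -0.76 to -0.063 in Glis3KO2 and was -0.45, -0.29, 0.81 and 1.28 in WT replicates 1 to 4, with 17 of 18 lower in Glis3KO2. Without WT replicates 3 and 4 the median difference of these markers went from -0.75 to -0.038, with 11 of 18 lower. Wherever those 2 arrays are left out, all 4 Glis3KO2 arrays are kept, so replicate numbers are not balanced between the genotypes. Between the 2 arrays numbered 1 and between those numbered 2 (pairs 1 and 2), the germ cell medians were -0.18 and -0.45. Of the 18 markers, 12 and 15 were lower in these pairs. Ddx4, the germ cell RNA helicase, averaged 1.97 in Glis3KO2 and 2.92 in WT, where replicates 1 to 4 were at 1.80, 2.22, 3.48 and 4.17. Markers of stroma ran the other way, with 14 of 14 higher in Glis3KO2 and a centred mean from -0.028 to 1.59 in Glis3KO2 and from -1.01 to 0.68 in WT. Their median difference of 0.91 was 0.34, with 1 of 14 lower, when WT replicates 3 and 4 were left out. In pairs 1 and 2 the stroma medians were 0.84 and 0.85. All 12 Sertoli markers were well above background on all arrays. In Glis3KO2 8 of 12 had lower means (median -0.25), and 3 of 12 without WT replicates 3 and 4 (median 0.32). Sertoli medians in pairs 1 and 2 were 0.040 and -0.23, with 5 and 8 of 12 lower. Their centred mean was -0.32, -0.54, -0.10 and 0.61 in Glis3KO2 replicates 1 to 4 and -0.30, -0.43, 0.58 and 0.52 in WT replicates 1 to 4, so it was high on WT replicates 3 and 4 and on Glis3KO2 replicate 4. The isolation marker Thy1 averaged 1.88 in Glis3KO2 and 1.22 in WT and was well above background on all 8 arrays. It was 2.21, 2.46, 1.36 and 1.47 in Glis3KO2 replicates 1 to 4, and 1.55, 2.05, 1.33 and -0.028 in WT replicates 1 to 4. The groups overlapped (exact two-sided permutation p = 0.257), and the difference of 0.65 was 0.078 without WT replicates 3 and 4. The part of these cell types in the cell cycle results was not tested, and in bulk RNA fewer cells of a type and less RNA per cell cannot be told apart.

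None of the 41 cell cycle genes passed the threshold of the limma test over all genes, and most had slightly lower means in Glis3KO2. Their median log2 difference was -0.23, against -0.084 over all 17513 genes, and 34 of 41 (82.9%) had a lower mean in Glis3KO2, against 59.2% of all genes. Single arrays moved this median by over 1.5 times: it was -0.089 with 23 of 41 lower without WT replicate 4 (all genes -0.061), -0.13 with 31 lower without WT replicate 3 (all genes -0.068) and -0.38 with 39 lower without WT replicate 1 (all genes -0.091). Differences ran from -0.64 for Cenpf to 0.25 for Cdk1. At an adjusted p under 0.05, 0 of the 41 genes and 0% of all genes were called. At an unadjusted p under 0.05, 1 of 41 was lower (Aurka) and 0 were higher, where 4.75% of all genes were lower and 2.15% higher, so the share of these genes past that limit was below or near the background. Groups overlapped for all 41, while in 2.60% of all genes the Glis3KO2 arrays lay wholly below the WT arrays and in 0.902% wholly above them. With the replicate number as a block, 2 of 41 were lower at an unadjusted p under 0.05 (Aurka and Mcm5, with unadjusted p of 0.0252 and 0.0371), against 6.33% of all genes, and again 0 were called. The smallest adjusted p among the 41 was 0.697.

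**Figure D2:**
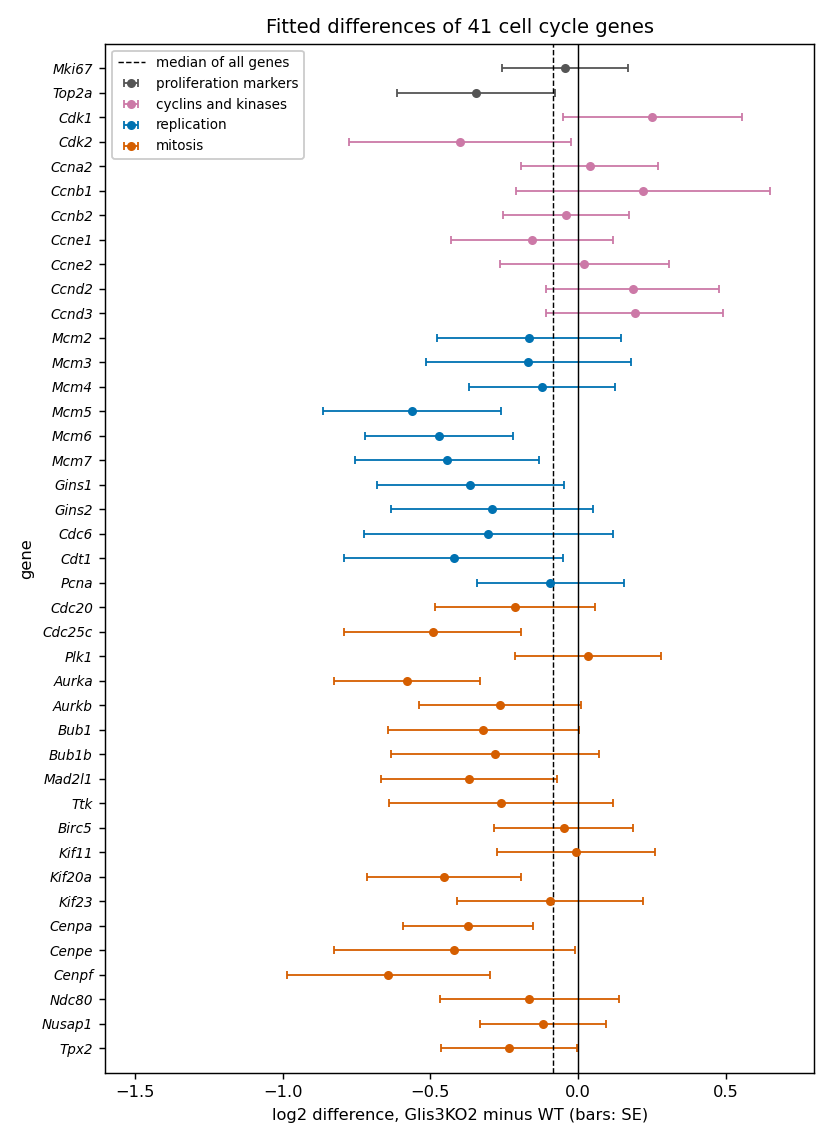
Log2 difference, Glis3KO2 minus WT (x axis; points are limma estimates, bars their SE, n = 4 arrays each), for the 41 measured genes (y axis) coloured by role, with the median of all genes as a dashed line. Replication and mitosis genes lie mostly left of 0, down to -0.64 for Cenpf, while 6 of 9 cyclin and kinase genes lie right of 0. After normexp correction and 75th percentile scaling, 8 of 11 replication and 13 of 19 mitosis genes had lower means. Only 6 of 11 and 6 of 19 were then below the median of all genes, which was -0.23.

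By role, the counts of lower and higher means were as follows. All 11 replication genes and 18 of 19 mitosis genes had lower means in Glis3KO2, with medians of -0.30 and -0.27, while 6 of 9 cyclin and kinase genes had higher means, with a median of 0.039. No gene of any role passed the test. Without WT replicate 4 the lower counts were 7 of 11 and 13 of 19, with medians of -0.17 and -0.12 for replication and mitosis. The replication median was -0.16 without WT replicate 3, and without WT replicate 1 the replication and mitosis medians were -0.59 and -0.44. The cyclin and kinase median was -0.070, with 8 of 9 lower, without WT replicate 1, and -0.026 without Glis3KO2 replicate 2. Whether the cyclin and kinase genes differ from the other roles was not tested. With normexp background correction before the 75th percentile scaling, which shifted the median of all genes by -0.15, the lower counts became 8 of 11 and 13 of 19, and the median of the 41 genes relative to all genes turned from -0.15 to 0.062. In that setting 6 of 11 replication and 6 of 19 mitosis genes were below the median of all genes, against 11 of 11 and 16 of 19 as reported. Relative to all genes, the replication and mitosis medians were then -0.051 and 0.062. With normexp and quantile normalization the counts were 11 of 11 and 18 of 19, and the cyclin and kinase median was -0.027. The replication median minus the mitosis median was -0.039. Between arrays of a genotype, the replication minus mitosis contrast of centred means had a pooled SD of 0.13. That SD is of single arrays and is not the error of the -0.039. Per array, the centred replication mean minus the centred mitosis mean was 0.092, -0.055, 0.064 and -0.16 in Glis3KO2 replicates 1 to 4 and -0.071, -0.13, 0.17 and 0.090 in WT replicates 1 to 4. The genotypes overlapped throughout in this contrast, with means of -0.015 ± 0.12 in Glis3KO2 and 0.015 ± 0.14 in WT (SD, n = 4 each).

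Cyclins and their kinases, which time the cycle, had the smallest median difference of the 4 roles. Cdk1, the kinase that drives entry into mitosis, was 0.15, 0.44, 0.38 and 0.35 in Glis3KO2 replicates 1 to 4, against -0.78, 0.17, 0.27 and 0.66 in WT replicates 1 to 4. All Glis3KO2 values lay within the WT range, and WT replicate 1 was the lowest of the 8 arrays. The difference of 0.25 (SE 0.30) turned to -0.034 without WT replicate 1. Ccnb1, its mitotic cyclin partner, had the same low array: it was 0.98, 1.43, 0.92 and 1.21 in Glis3KO2, against -0.44, 0.90, 1.40 and 1.80 in WT, with a difference of 0.22 (SE 0.43), which was -0.23 without WT replicate 1. Cdk2, the kinase of S phase, was -1.94, -0.73, -0.999 and -0.43 in Glis3KO2, against -0.85, -1.27, -0.21 and -0.15 in WT, and differed by -0.40 (SE 0.38, limma adjusted p = 0.777). Here Glis3KO2 replicate 1 was the lowest array and the other 3 lay within the WT range.

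The D-type cyclins, which link growth signals to entry into the cycle, were measured through Ccnd2 and Ccnd3. Ccnd2 was 3.39, 3.60, 3.31 and 3.88 in Glis3KO2, against 2.68, 3.29, 3.96 and 3.51 in WT (difference 0.18, SE 0.29). Ccnd3 was 1.40, 2.10, 0.94 and 1.02 in Glis3KO2, against 1.14, 1.60, 0.92 and 1.02 in WT (difference 0.19, SE 0.30). In Ccnd3 replicate 2 was the highest array of both genotypes and WT replicates 3 and 4 were not high, unlike in most of the other genes. The E-type cyclins of the start of S phase, Ccne1 and Ccne2, differed by -0.16 (SE 0.27) and 0.022 (SE 0.29). Ccna2, the cyclin of S phase and early mitosis, and Ccnb2 differed by 0.039 (SE 0.23) and -0.041 (SE 0.21).

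Replication genes had lower means in Glis3KO2 in 11 of 11 cases (8 of 11 after normexp correction and 75th percentile scaling), between -0.56 and -0.094, and 0 passed the test. After that correction and scaling, 6 of 11 were below the median of all genes, which was then -0.23. Mcm6, a subunit of the replicative helicase, was 5.31, 5.60, 5.65 and 5.36 in Glis3KO2 replicates 1 to 4, against 5.60, 5.64, 6.15 and 6.42 in WT replicates 1 to 4. Its difference was -0.47 (SE 0.25), a 1.39-fold lower signal, with a limma adjusted p of 0.697. Mcm5, another subunit, was 1.77, 1.93, 2.41 and 2.14 in Glis3KO2, against 2.17, 2.14, 3.17 and 3.01 in WT, with a difference of -0.56 (SE 0.30), a 1.48-fold lower signal. In both genes 3 of 4 Glis3KO2 arrays were below the lowest WT array, all 4 numbered pairs were lower, and WT replicates 3 and 4 were the highest arrays. Without those 2 arrays the differences were -0.14 for Mcm6 and -0.10 for Mcm5.

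As with Mcm5 and Mcm6, no further MCM subunit passed the test, and the groups overlapped in each. Mcm2 was 2.48, 1.63, 1.70 and 1.86 in Glis3KO2, against 1.55, 1.74, 2.37 and 2.66 in WT (difference -0.17, SE 0.31), so that Glis3KO2 replicate 1 lay between the 2 highest WT arrays. Mcm3, Mcm4 and Mcm7 differed by -0.17, -0.12 and -0.44 (SE 0.35, 0.25 and 0.31). Cdc6 and Cdt1, which load the helicase at origins, differed by -0.30 (SE 0.42) and -0.42 (SE 0.37), and Gins1 and Gins2, subunits of the complex that activates it, by -0.36 (SE 0.32) and -0.29 (SE 0.34). Pcna, the sliding clamp of DNA polymerase, was 4.15, 4.66, 4.25 and 3.96 in Glis3KO2, against 4.11, 4.34, 4.16 and 4.80 in WT, a difference of -0.094 (SE 0.25). Its highest array was WT replicate 4, while WT replicate 3 lay with the rest.

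Mitosis genes were led by Aurka, the Aurora kinase of centrosomes and spindle poles. Aurka was 1.90, 2.49, 2.34 and 2.30 in Glis3KO2 replicates 1 to 4, against 2.35, 2.88, 3.04 and 3.08 in WT replicates 1 to 4. Only WT replicate 1 lay within the Glis3KO2 range, and all 4 numbered pairs were lower in Glis3KO2. The difference was -0.58 (SE 0.25), a 1.49-fold lower signal, with an unadjusted p of 0.0412 and a limma adjusted p of 0.697. It was -0.57 within slide 1 and -0.58 within slide 2, and -0.35 without WT replicates 3 and 4. Cdc25c, the phosphatase that activates Cdk1, was 0.90, 1.30, 1.47 and 1.09 in Glis3KO2, against 1.02, 1.55, 1.80 and 2.36 in WT, with a difference of -0.49 (SE 0.30), and -0.10 without WT replicates 3 and 4.

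Among the other regulators of mitosis the differences were smaller than or close to their errors. The checkpoint genes Bub1, Bub1b, Mad2l1 and Ttk, which hold the cell until chromosomes are attached, differed by -0.32 (SE 0.32), -0.28 (SE 0.35), -0.37 (SE 0.30) and -0.26 (SE 0.38). Cdc20, the activator of the anaphase-promoting complex that this checkpoint restrains, differed by -0.21 (SE 0.27). Aurkb and Birc5, partners in the chromosomal passenger complex, differed by -0.27 (SE 0.27) and -0.049 (SE 0.24), and Plk1, a kinase of many mitotic steps, by 0.032 (SE 0.25).

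Kinetochore genes had the lowest median of the mitosis groups, -0.40 over 4 genes, all with lower means in Glis3KO2 and 0 past the test. WT replicates 3 and 4 were the 2 highest arrays in all 4 genes, and without them the median was 0.11, with 2 of 4 lower. Cenpf, a kinetochore protein of late cycle cells, was 2.34, 2.16, 2.44 and 2.45 in Glis3KO2, against 2.07, 2.77, 3.35 and 3.77 in WT. WT replicate 1 was the lowest of the 8 arrays, the other 3 WT arrays were the highest, and the difference of -0.64 (SE 0.34, limma adjusted p = 0.697) was -0.074 without WT replicates 3 and 4. A second probe of Cenpf, well above background on 6 arrays, differed by 0.75, and the mean of both probes by 0.056. Cenpa, the histone H3 variant that marks centromeres, was 0.79, 1.31, 0.99 and 1.42 in Glis3KO2, against 1.46, 1.38, 1.56 and 1.60 in WT (difference -0.37, SE 0.22). Its WT values spanned only 0.22, and 3 of 4 Glis3KO2 arrays lay below all of them. Cenpe, a kinetochore motor, and Ndc80, which holds microtubules, differed by -0.42 (SE 0.41) and -0.17 (SE 0.30).

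Among motors and spindle proteins Kif20a had the lowest difference. Kif20a, a kinesin of cytokinesis, was 1.48, 2.43, 1.69 and 1.96 in Glis3KO2, against 2.21, 2.08, 2.48 and 2.60 in WT, with 3 of 4 Glis3KO2 arrays below all WT arrays and a difference of -0.45 (SE 0.26). The difference was -0.76 on slide 1 and -0.14 on slide 2. Tpx2, a spindle factor that activates Aurora A, was 0.48, 0.34, 0.65 and 0.46 in Glis3KO2, against 0.50, 0.44, 0.78 and 1.15 in WT (difference -0.23, SE 0.23). Kif11, the motor that pushes spindle poles apart, Kif23, a midzone kinesin, and Nusap1, which bundles spindle microtubules, differed by -0.0087, -0.094 and -0.12 (SE 0.27, 0.32 and 0.21).

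The general proliferation markers did not pass the test either. Mki67, the gene of the Ki-67 antigen of cycling cells, was 4.46, 4.52, 4.84 and 4.44 in Glis3KO2, against 4.36, 4.54, 4.71 and 4.83 in WT, a difference of -0.044 (SE 0.21, limma adjusted p = 0.963). The groups overlapped, and the highest array was Glis3KO2 replicate 3. Top2a, the topoisomerase that untangles chromosomes, was 2.22, 2.31, 2.17 and 2.86 in Glis3KO2, against 2.27, 2.60, 3.12 and 2.96 in WT, a difference of -0.35 (SE 0.27). Here 2 Glis3KO2 arrays lay below the lowest WT array, and WT replicates 3 and 4 were above all others.

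**Figure D3:**
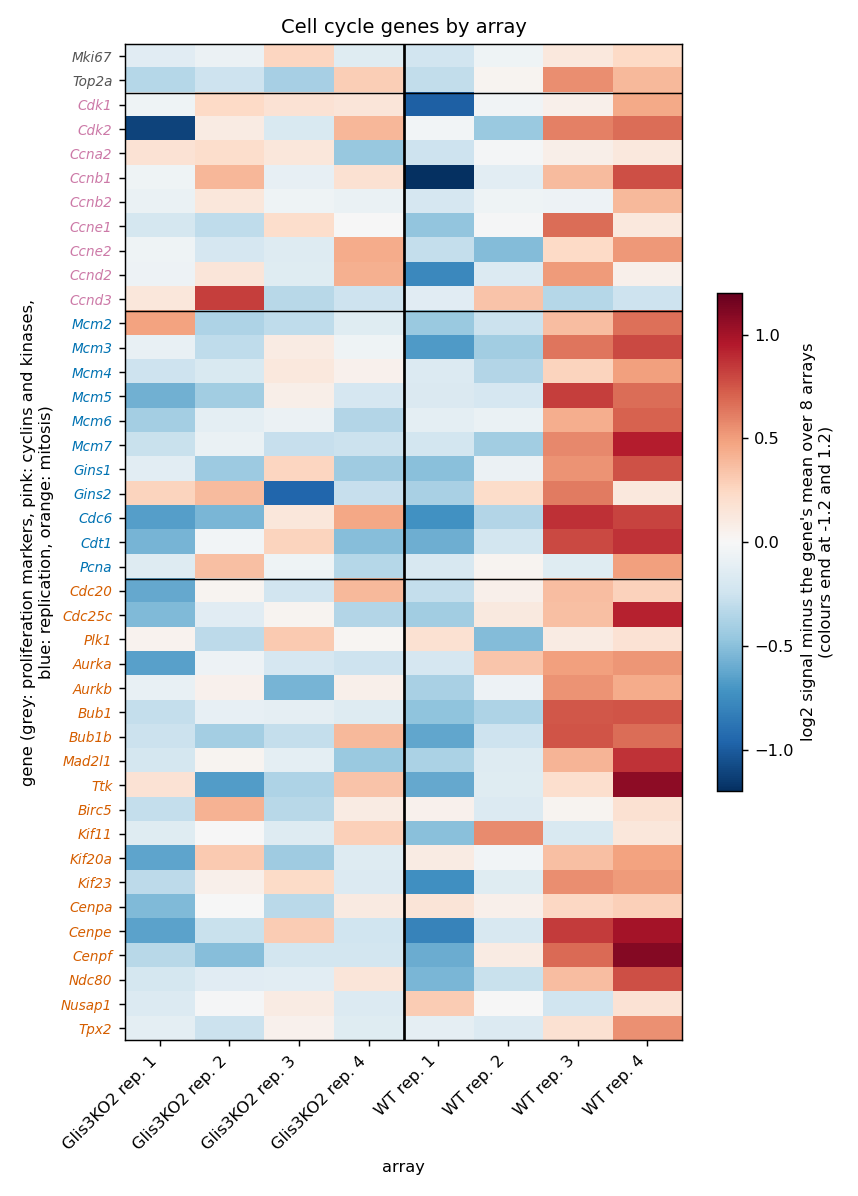
Log2 signal of each of the 41 genes (y axis, grouped and coloured by role) on each array (x axis), minus the gene's mean over the 8 arrays. The 2 rightmost columns, WT replicates 3 and 4, are red through most replication and mitosis genes, and they are the 2 highest arrays in 23 of the 41 genes.

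Many of the genes, though few cyclins and kinases, were highest on the same arrays. WT replicates 3 and 4 were the 2 highest of the 8 arrays for 23 of 41 genes (56.1%), against 15.2% of all genes: 8 of 11 replication genes, 13 of 19 mitosis genes and 1 of 9 cyclin and kinase genes. The germ cell markers had the same 2 arrays on top in 15 of 18 cases, Sertoli markers in 2 of 12, and stroma, macrophage and smooth muscle markers in 0 of 14, 0 of 10 and 0 of 8. The centred replication mean was -0.21, -0.16, -0.064 and -0.19 in Glis3KO2 replicates 1 to 4, against -0.38, -0.19, 0.53 and 0.66 in WT replicates 1 to 4. The centred mitosis mean was -0.30, -0.10, -0.13 and -0.023 in Glis3KO2, against -0.31, -0.065, 0.36 and 0.57 in WT. In both lists WT replicates 1 and 2 lay at or below the Glis3KO2 arrays or among them, and WT replicates 3 and 4 above all. The same held for the cyclin and kinase mean, which was -0.15, 0.17, -0.048 and 0.090 in Glis3KO2 and -0.51, -0.12, 0.24 and 0.32 in WT.

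**Figure D4:**
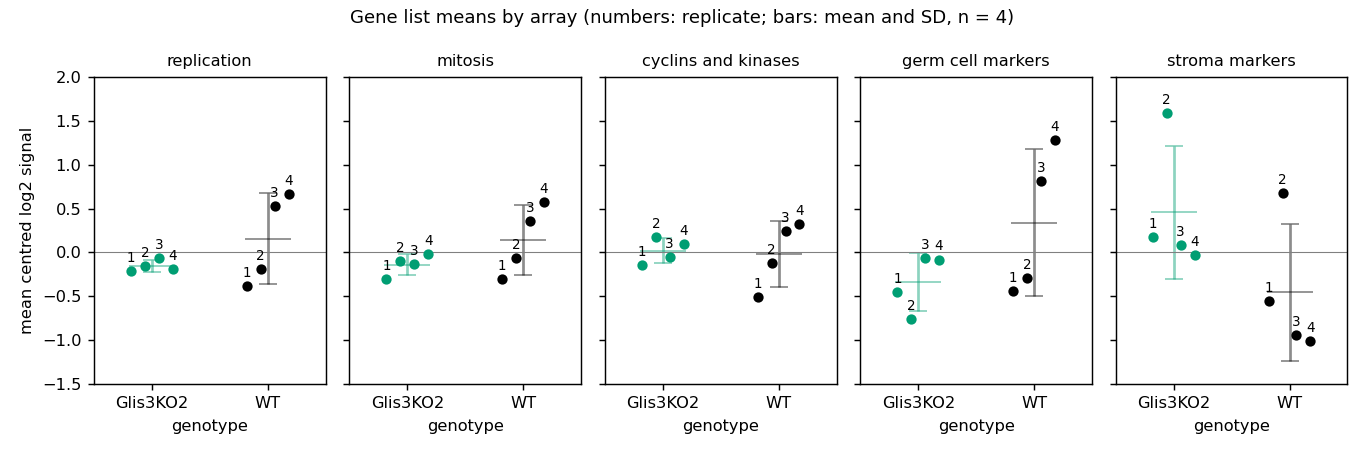
Mean centred log2 signal (y axis) of 3 cell cycle groups, germ cell markers and stroma markers on each array, by genotype (x axis); numbers are replicates, and bars are mean and SD (n = 4). WT replicates 3 and 4 are the highest arrays for the cell cycle groups and germ cell markers and the lowest for stroma markers.

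Values spread more widely over the WT arrays. A gene's range over the 4 arrays had a median of 0.61 in Glis3KO2 and 1.07 in WT, and it was larger in WT for 32 of 41 genes (78.0%), against 57.8% of all genes. All 4 Glis3KO2 arrays lay within the WT range for 21 of 41 genes (51.2%), against 23.5% of all genes. The replication mean had an SD of 0.065 over the Glis3KO2 arrays and 0.52 over the WT arrays, and the mitosis mean one of 0.12 and 0.40.

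Arrays that share a replicate number were also set against each other. In pair 1 the median difference of the 41 genes was 0.16, with 15 lower in Glis3KO2, and in pair 2 it was 0.12, with 19 lower. In pair 3 it was -0.52 with 32 lower, and in pair 4 it was -0.58 with 38 lower, while the medians of all genes in pairs 1 to 4 were -0.066, 0.00096, -0.13 and -0.12. Replication genes had medians of 0.039, 0.12, -0.54 and -0.84 in pairs 1 to 4, mitosis genes 0.16, -0.034, -0.54 and -0.64, and cyclin and kinase genes 0.26, 0.32, -0.39 and -0.28. Germ cell markers had medians of -0.18, -0.45, -0.93 and -1.35. The genes lower in all 4 pairs numbered 7 of 41 (17.1%, against 13.5% of all genes) and were Top2a, Mcm5, Mcm6, Cdc25c, Aurka, Cenpa and Tpx2. Each slide held 2 arrays of each genotype, WT always in positions 1 and 2 and Glis3KO2 in positions 3 and 4, so position and genotype cannot be told apart. The median of the 41 genes was -0.11 within slide 1 (26 lower, all genes -0.10) and -0.21 within slide 2 (34 lower, all genes -0.067). Relative to all genes these medians were -0.010 and -0.14. Without WT replicates 3 and 4 the median of the 41 genes turned to 0.11, with 12 lower, against -0.031 over all genes. The replication, mitosis and cyclin and kinase medians were then 0.11, 0.032 and 0.16. Of the 7 genes lower in all 4 pairs, Tpx2 was at 0.015 there and the other 6 kept a lower mean in Glis3KO2.

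**Figure D5:**
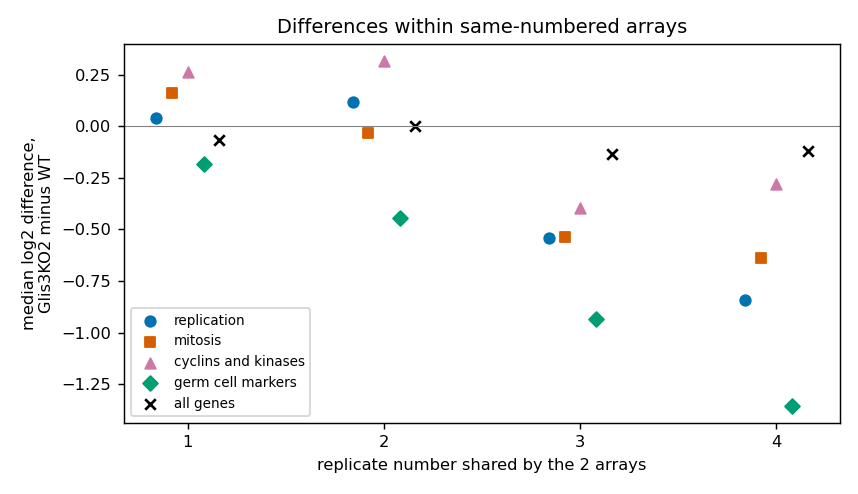
Median log2 difference, Glis3KO2 minus WT (y axis), within each pair of arrays that share a replicate number (x axis), for cell cycle groups, germ cell markers and all genes. Replication and mitosis genes lie between -0.034 and 0.16 in pairs 1 and 2 and between -0.84 and -0.54 in pairs 3 and 4.

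Other genes of the cycle, listed by function, had 0 called over all genes in any list. Of 32 further replication genes measured, 25 had a lower mean in Glis3KO2 (median -0.24), 4 of them at an unadjusted p under 0.05, and 0 were higher at that limit. Over all genes 59.2% had a lower mean, 4.75% were lower at that limit and 2.15% higher. Those with the smallest p were Rpa2, a subunit of the single-strand binding protein, at -0.82 (SE 0.29), the initiation factor Mcm10 at -0.98 (SE 0.40) and Uhrf1, which carries DNA methylation through replication, at -0.60 (SE 0.26). On the higher side Pola1, Orc3 and Tk1 were at 0.46 (SE 0.28), 0.73 (SE 0.50) and 0.20 (SE 0.27). Of 52 further mitosis genes, 36 had a lower mean (median -0.12), 4 at an unadjusted p under 0.05, against 4.75% of all genes. Among them Kif2c, a microtubule-depolymerizing kinesin, was at -0.97 (SE 0.32), the kinetochore gene Cenph at -0.83 (SE 0.28) and Cdca8, of the chromosomal passenger complex, at -0.64 (SE 0.25), each with all Glis3KO2 arrays below all WT arrays. Those were the 3 of 52 mitosis genes with groups that did not overlap, beside 2 of 32 replication genes and 2.60% of all genes, so these few genes are not read as a result about the lists. On the higher side Cdc16, Spc24 and Lin54 were at 0.63 (SE 0.32), 0.46 (SE 0.28) and 0.45 (SE 0.33). WT replicates 3 and 4 were the 2 highest arrays for 16 of the 32 replication and 21 of the 52 mitosis genes. When these 2 arrays were left out, both medians turned. They were then 0.13 for replication, with 12 of 32 lower, and 0.11 for mitosis, with 19 of 52 lower.

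Regulators of the step into S phase and inhibitors of the cycle, 24 measured, had 16 higher and 8 lower means in Glis3KO2 (median 0.17), where 7152 of 17513 genes had higher means. When WT replicates 3 and 4 were left out, the median was 0.035, with 10 of 24 lower. Rbl2, the p130 pocket protein of resting cells, was at 1.02 (SE 0.37), E2f5 at 0.84 (SE 0.47) and E2f2 at 0.42 (SE 0.30). E2f6, a repressor of the family, was at -0.89 (SE 0.37), and E2f1, an activator, at -0.59 (SE 0.25) with all Glis3KO2 arrays below all WT arrays, and E2f3 at -0.34 (SE 0.25). At an unadjusted p under 0.05, 2 were lower and 1 was higher, where 4.75% of all genes were lower and 2.15% higher, and 0 passed over all genes (smallest adjusted p 0.697). E2f1 was the 1 of 24 whose groups did not overlap, beside 2.60% of all genes wholly lower and 0.902% wholly higher. It is not read as a result about the list.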

How the data were processed

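The scanner files hold 1-colour Agilent intensity values per spot, extracted with Feature Extraction per the file headers, and the deposited value table holds the same processed intensity. RNA was amplified and labelled by the submitters, per the labels' protocols. From these, log2 of the processed signal minus the array's 75th percentile was computed, spots marked as outliers were dropped, spots of a probe were averaged, probes were kept if well above background on 4 or more of the 8 arrays, and each gene was read by its probe of highest mean. Names came from RefSeq accessions (28223 of 41174 probes matched, 12951 unnamed). Genotypes were compared with limma 3.58.1 (lmFit and eBayes, 4 against 4, Benjamini-Hochberg over 17513 genes, threshold 0.05), tested on simulated data first. Array number and signal over background (86.0% to 90.3% of spots) limit precision. As mean signal was not given, normexp used the median signal and background. Same-numbered arrays had correlated deviations (r = 0.16, 0.34, 0.18 and 0.13 for numbers 1 to 4), though Glis3KO2 replicate 4 with WT replicate 3 and Glis3KO2 replicate 3 with WT replicate 4 did so as much (r = 0.14 and 0.12). As every same-numbered r was over 0.1, the replicate number was also fitted as a block. Array values are given for Mki67, Top2a, Cdk1, Ccnb1, Ccnd2, Ccnd3, Pcna, Mcm2 and the 2 genes of smallest p in each role, and from each further list the 3 of smallest p in each direction are named. Members, gene lists and markers were chosen with earlier results of these data known.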

Additional observations from a re-analysis of the deposited data

Results flagged for a closer look

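In 4 of 88 groups of 4 arrays, 1 array stood apart from the others by Dixon's test, where chance gives about 1 in 20. Ccna2 in Glis3KO2 had a gap of 0.889 of the group's range, with replicate 4 low. Ccnb2 in Glis3KO2 had a gap of 0.877, with replicate 2 high. Mcm7 in Glis3KO2 had a gap of 0.921, with replicate 2 high. Plk1 in WT had a gap of 0.88, with replicate 2 low.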

How the results depend on the processing

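At the adjusted threshold 0 of the 41 genes were called under every alternative run, and over the whole array 1 gene (Gm16702) was called with quantile normalization and 0 otherwise. At an unadjusted p under 0.05, 1 of the 41 genes passed as reported. That count was 0 with normexp and the 75th percentile, without WT replicates 3 and 4, and within slide 1 or slide 2. It was 2 with the trend and robust setting, 8 with array weights, and 0 to 4 when 1 array was left out. Those weights were 0.589, 0.61, 1.35 and 1.2 for WT replicates 1 to 4, and 1.75, 0.715, 1.44 and 0.959 for Glis3KO2 replicates 1 to 4. The count was 0 without WT replicate 3, WT replicate 4, or Glis3KO2 replicate 1, 3 or 4, 2 without Glis3KO2 replicate 2 and 4 without WT replicate 1. With the replicate block it was 2, and the block called 0 genes at the adjusted threshold and changed no other call. Over all genes 1208 passed that limit as reported, 1877 with the replicate block, 2314 with array weights, 770 without WT replicates 3 and 4, 493 within slide 2, and 663 (without WT replicate 3) to 2408 (without WT replicate 2) with 1 array left out. Without WT replicates 3 and 4, 12 of 41 genes were lower in Glis3KO2, and the medians of the 41 genes and of the replication genes were both 0.11. The replication median minus the mitosis median was -0.20 within slide 2 and between -0.17 and 0.053 with 1 array left out, against -0.039 as reported. The cause of these shifts was not tested.

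Log2 differences whose sign turned, none of them called, were as follows. With normexp and the 75th percentile the turned values were Mki67 0.15, Ccnb2 0.060, Ccne2 -0.27, Mcm2 0.073, Mcm4 0.14, Pcna 0.13, Cdc20 0.014, Birc5 0.20, Kif11 0.094, Kif23 0.012 and Nusap1 0.039. Without WT replicates 3 and 4 the turned values were Mki67 0.12, Cdk2 0.038, Ccnb2 0.11, Ccne1 0.16, Ccnd3 -0.0073, Mcm2 0.27, Mcm3 0.47, Mcm4 0.19, Mcm7 0.095, Gins1 0.11, Cdc6 0.39, Cdt1 0.19, Pcna 0.033, Cdc20 0.0049, Aurkb 0.094, Bub1 0.27, Bub1b 0.29, Mad2l1 0.085, Ttk 0.25, Birc5 0.032, Kif23 0.39, Cenpe 0.29, Ndc80 0.32 and Tpx2 0.015. Within slide 1 the turned values were Mki67 0.11, Ccnb2 0.061, Ccne2 -0.081, Mcm2 0.12, Mcm3 0.025, Gins1 0.045, Pcna 0.065, Ttk 0.11, Kif11 0.19, Kif23 0.050 and Tk1 -0.20. Within slide 2 the turned values were Cdk1 -0.015, Cdk2 0.13, Ccna2 -0.17, Ccnb1 -0.028, Cdc20 0.038, Birc5 0.25 and Lin54 -0.13. With normexp and quantile normalization the turned values were Ccna2 -0.027 and Ccne2 -0.079. With probes of a gene averaged the turned values were Ccnb1 -0.083, Kif11 0.16 and Cenpf 0.056. With array weights the turned values were Ccnb1 -0.084, Ccne2 -0.13 and Ccnd2 -0.013. With median scaling the turned value was Kif11 0.0013.

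With 1 array left out at a time, the ranges of the genes whose sign turned were Mki67 -0.14 to 0.029, Cdk1 -0.034 to 0.45, Ccna2 -0.039 to 0.20, Ccnb1 -0.23 to 0.51, Ccnb2 -0.11 to 0.083, Ccne1 -0.34 to 0.042, Ccne2 -0.15 to 0.20, Ccnd2 -0.042 to 0.39, Ccnd3 -0.053 to 0.34, Mcm2 -0.35 to 0.026, Mcm3 -0.42 to 0.067, Mcm4 -0.26 to 0.021, Pcna -0.23 to 0.054, Plk1 -0.14 to 0.14, Ttk -0.51 to 0.054, Birc5 -0.20 to 0.054, Kif11 -0.18 to 0.18, Kif23 -0.36 to 0.076 and Ndc80 -0.38 to 0.064.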

Other observations

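Of the 41 genes, 25 were read by 1 probe and 16 by several. For 8 of the 16 (Bub1, Ccnb1, Ccnd2, Ccne1, Cdc25c, Cdk1, Cenpf and Kif11) the probes differed in the sign of the Glis3KO2 minus WT difference. The 3 probes of Ccnb1 gave 0.22, 0.044 and -0.51, and those of Cdc25c gave -0.49 and 0.073. Cenpf, the gene with the lowest difference, gave -0.64 and 0.75. Which transcripts each probe reads was not tested.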
